A study of Mus musculus with 6 samples.

Results

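A group of 10 mostly short transcripts, of 28208 genes listed for all 6 kidneys, was followed through the cell types of naive, rejecting and tolerized mouse kidneys. Its members are Rpl41, Rps28, Rps27rt, Atp5k, Usmg5, 2010107E04Rik, Smim27, Smim4, Epb41l4aos and Gm8186. They were chosen by name as short transcripts whose levels were higher in tolerized than in rejecting kidneys in these same libraries. Their tolerized against rejecting values are therefore given as a description, without a test. All 10 were found in every matrix, Smim27 under the older name Toporsos in the naive gene lists, where it was matched by its gene identifier.

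The group holds small products of a few kinds. Ribosomal proteins such as Rpl41 and Rps28 are built into the large and the small subunit of the ribosome and are needed in every cell. Atp5k, Usmg5 and 2010107E04Rik encode small membrane subunits of the mitochondrial ATP synthase, the enzyme that makes ATP from the proton gradient and that proximal tubule cells, rich in mitochondria, carry in large amounts. Smim4 encodes an assembly factor of respiratory complex III, Smim27 a small membrane protein, and Epb41l4aos a long noncoding RNA. Rps27rt and Gm8186 are intronless copies of other genes.

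The study profiled single cells of 6 kidneys by droplet sequencing, with 2 kidneys per group and 1 library per kidney. Naive kidneys came from male C57BL/6 mice of 10-12 weeks that had no transplant. Rejecting kidneys were BALB/c kidneys, from donors of 6-7 weeks, placed in C57BL/6 males whose own kidneys had been removed and left untreated. Tolerized kidneys were the same grafts in recipients that also received donor splenocytes fixed with ethylenecarbodiimide 7 days before and 1 day after transplantation (a label gives the first dose as day 7). Grafts were taken on day 15. Naive kidneys differed from grafts in strain, in age, in the gene list used for counting and possibly in sex. The paper gives donors as male or female. In kidney cells, none of these differences can be told apart from transplantation in a comparison with naive kidneys. The paper reports, for congenic recipients, that myeloid cells of the grafts came almost entirely from the recipient. Such cells share the strain and sex of the naive kidneys. The gene list still differed for them, and the origin of the other leukocytes was not tested.

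The libraries held between 34874702 and 96803926 UMIs (unique molecular identifiers, each standing for 1 captured RNA molecule), and the 2 tolerized libraries were the deepest. After filters on cells and removal of called doublets, 5603 to 10479 cells per kidney remained. The naive kidneys had medians of 3601 and 3450 UMIs per cell, the rejecting ones 2523 and 3564, and the tolerized ones 6120 and 7306.5. In rejecting kidney 1, 21.58% of cells had fewer than 1000 UMIs, against 7.11% in rejecting kidney 2 and at most 4.68% in the others. Cells were assigned to classes by marker genes, and a class carries the name of its markers, for example proximal tubule-like. The 13 proximal tubule markers all had a count above 0 in the summed proximal tubule-like cells of each kidney, which RNA of other cells could also give. Naive and graft cells of this class fell almost wholly into separate clusters. Few cell barcodes were shared between libraries, 111 between the naive kidneys, 18 to 35 between any 2 grafts and 0 to 4 between a naive kidney and a graft. Whether naive libraries were also prepared or counted in another way is not given in the sources used here. Such a difference could not be told apart from transplantation in any comparison with naive kidneys, leukocytes included.

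The coding parts of the members are shown first because their shortness and their near-copies recur in the results. Start and stop codons are in capitals, the sequences were read from GENCODE M21 transcripts on GRCm38, and the positions span from the first to the last coding base, introns included. Rpl41 (chr10:128548387-128548960, minus strand), the ribosomal protein of the large subunit with only 25 codons before the stop, reads as follows.
Rpl41: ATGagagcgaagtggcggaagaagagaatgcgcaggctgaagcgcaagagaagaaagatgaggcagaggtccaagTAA
The small-subunit protein Rps28 (chr17:33823208-33824472, minus strand) has 69 codons.
Rps28: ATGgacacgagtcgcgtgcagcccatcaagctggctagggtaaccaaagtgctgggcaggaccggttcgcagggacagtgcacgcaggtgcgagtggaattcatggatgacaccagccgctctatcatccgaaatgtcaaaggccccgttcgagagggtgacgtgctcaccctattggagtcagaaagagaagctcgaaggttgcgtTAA
Rps27rt (chr9:114982453-114982707, minus strand, a single exon) has 84 codons, and its coding part is identical to that of Rps27 on chromosome 3 over all 255 bases.
Rps27rt: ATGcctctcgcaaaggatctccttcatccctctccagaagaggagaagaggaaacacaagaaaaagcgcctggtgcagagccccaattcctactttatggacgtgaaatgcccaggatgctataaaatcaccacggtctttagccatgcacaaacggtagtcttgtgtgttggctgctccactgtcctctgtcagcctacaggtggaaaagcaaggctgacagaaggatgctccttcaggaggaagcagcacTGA
The ATP synthase members are Atp5k (chr5:108433312-108434361, minus strand, 71 codons), Usmg5 (chr19:47085958-47086220, minus strand, 58 codons) and 2010107E04Rik (chr12:111961510-111963353, minus strand, 58 codons, named Atp5mpl in GENCODE).
Atp5k: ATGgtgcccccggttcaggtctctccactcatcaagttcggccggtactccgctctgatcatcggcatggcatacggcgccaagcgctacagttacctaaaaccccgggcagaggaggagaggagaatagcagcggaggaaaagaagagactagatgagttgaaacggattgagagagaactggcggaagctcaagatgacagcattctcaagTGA
Usmg5: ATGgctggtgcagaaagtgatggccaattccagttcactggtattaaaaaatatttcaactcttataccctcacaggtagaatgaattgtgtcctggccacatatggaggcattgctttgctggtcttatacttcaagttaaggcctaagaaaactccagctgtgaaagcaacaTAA
2010107E04Rik: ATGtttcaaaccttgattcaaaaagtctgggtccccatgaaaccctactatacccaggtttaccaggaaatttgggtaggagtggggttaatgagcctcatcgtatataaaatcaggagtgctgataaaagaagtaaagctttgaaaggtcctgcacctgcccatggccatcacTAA
Gm8186 (chr17:26098991-26099221, minus strand) is annotated as a processed pseudogene, and its whole transcript of 231 bases is identical to the coding part of Snrpg, a core protein of the spliceosome's small nuclear particles.
Gm8186: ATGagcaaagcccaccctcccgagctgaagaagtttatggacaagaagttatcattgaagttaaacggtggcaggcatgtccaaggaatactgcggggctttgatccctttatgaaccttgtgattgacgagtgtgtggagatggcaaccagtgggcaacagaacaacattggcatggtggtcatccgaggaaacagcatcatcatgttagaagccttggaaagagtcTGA

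The members were grouped as short transcripts, so their length is a description and not a result. Taking each gene's longest annotated transcript, the median over 28097 genes was 2213 bases and 8.0% of genes were under 500 bases, whereas 5 of the 10 members were (Rps28, Rps27rt, Atp5k, Epb41l4aos and Gm8186). Of 12702 genes fitted in proximal tubule-like cells, 112 besides the members were under 500 bases. Rpl41 reached 582 bases, 2010107E04Rik 612, Smim27 1044, Smim4 1219 and Usmg5 2733, although the shortest Usmg5 transcript has 352 bases. Rps28, Usmg5 and Smim27 share exon sequence on the opposite strand with Kank3, with Taf5 and with Topors and Ndufb6 respectively. With at least 90% identity over at least 80% of the coding part (for a noncoding member, of the transcript), 6 members had near-copies in the annotation, and 4 (2010107E04Rik, Smim27, Smim4 and Epb41l4aos) had none.

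Before any comparison of groups, the members followed the identity of the cells in each kidney. On the scale of raw CPM (UMIs of a gene relative to all UMIs summed over the cells of a class), the ribosomal members Rpl41, Rps28 and Rps27rt were higher in T cell-like than in proximal tubule-like cells in 6 of 6 kidneys, by 1.72 to 2.47 times for Rpl41 and 2.42 to 5.94 times for Rps28. The ATP synthase members went the other way in 6 of 6 kidneys. Proximal tubule-like cells held 2.25 to 2.73 times the T cell-like level of Atp5k, 1.95 to 2.71 times that of Usmg5 and 2.56 to 3.12 times that of 2010107E04Rik. Smim4, the complex III assembly factor, was also higher in proximal tubule-like cells in 6 of 6 kidneys, by 1.62 to 3.17 times. Gm8186 was higher in T cell-like cells in all 6, by 2.71 to 8.13 times. Epb41l4aos was too, but by only 1.03 to 1.78 times, and Smim27 was not ordered (higher in T cell-like cells in 4 kidneys). The naive T cell-like values rest on 30 and 42 cells. These orders held in naive, rejecting and tolerized kidneys, and they are a description because the classes were made from the same cells.

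Rps28 and Rpl41 showed the 3 groups most plainly. In proximal tubule-like cells, naive kidneys had Rps28 levels of 1277.0 and 1328.5 CPM, rejecting kidneys of 100.1 and 189.2, and tolerized kidneys of 456.0 and 379.3, on a CPM scale corrected between libraries with TMM (trimmed mean of M values) factors. The groups did not overlap, and the tolerized kidneys lay between the others. The log2 change of Rps28 from rejecting to tolerized was 1.53 ± 0.285 (SE from the edgeR fit), a 2.89-fold higher level. For Rpl41 the naive values were 3580.6 and 4303.9 CPM, the rejecting values 716.8 and 704.2 and the tolerized values 1944.7 and 1745.1, a log2 change of 1.38 ± 0.191 between the grafts. In T cell-like cells Rps28 was at 256.8 and 757.0 CPM with rejection and at 1912.6 and 1719.9 in tolerized kidneys (log2 change 1.84 ± 0.455), so the rejecting kidneys differed from each other by more than the tolerized ones did. In macrophage-like cells Rps28 was 201.2 and 477.3 against 1284.5 and 1158.6 CPM (1.85 ± 0.372), and Rpl41 was 1042.9 and 1189.0 against 2903.4 and 2608.2 (1.30 ± 0.182). The retrogene Rps27rt was low in grafts, with 12.5 and 12.4 CPM in rejecting and 22.8 and 19.3 in tolerized proximal tubule-like cells, against 149.5 and 182.8 in naive ones.

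The ATP synthase members had the same order of groups in the tubule. Proximal tubule-like cells of naive kidneys had 1451.9 and 1968.4 CPM of Usmg5 (TMM-scaled), those of rejecting kidneys 147.0 and 258.4 and those of tolerized kidneys 541.1 and 513.0 (tolerized minus rejecting, log2 change 1.38 ± 0.280). In the same order of groups, Atp5k was at 1160.5 and 1515.6, then 212.4 and 354.1, then 695.7 and 582.0 CPM (1.17 ± 0.267). 2010107E04Rik was at 1702.8 and 2131.8, then 241.7 and 407.2, then 833.6 and 802.0 CPM (1.33 ± 0.261). For each of these subunits no tolerized kidney overlapped a rejecting one, and rejecting kidney 1 was the lowest of the 6. T cell-like cells, in which these subunits were scarcer, gave changes of like size, as for Usmg5, at 57.7 and 116.6 CPM with rejection and at 249.3 and 269.4 in tolerized kidneys (1.57 ± 0.326).

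The other members were less abundant. Smim27 was at 12.2 and 13.1 CPM in rejecting and 32.4 and 26.5 in tolerized proximal tubule-like cells, below the naive 85.7 and 91.8. Smim4 had the smallest change in that class, with 100 and 74.8 against 133.6 and 136.7 CPM (0.63 ± 0.185) and 269.5 and 309.8 in naive kidneys. Gm8186 was at 7.09 and 6.13 against 9.78 and 11.4 CPM, with 14.2 and 27.5 in naive kidneys. Epb41l4aos was the member whose naive level was not the highest. Naive proximal tubule-like cells had 18.9 and 21.4 CPM of it, rejecting ones 14.1 and 10.8, and tolerized ones 28.1 and 24.5.

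**Figure D1:**
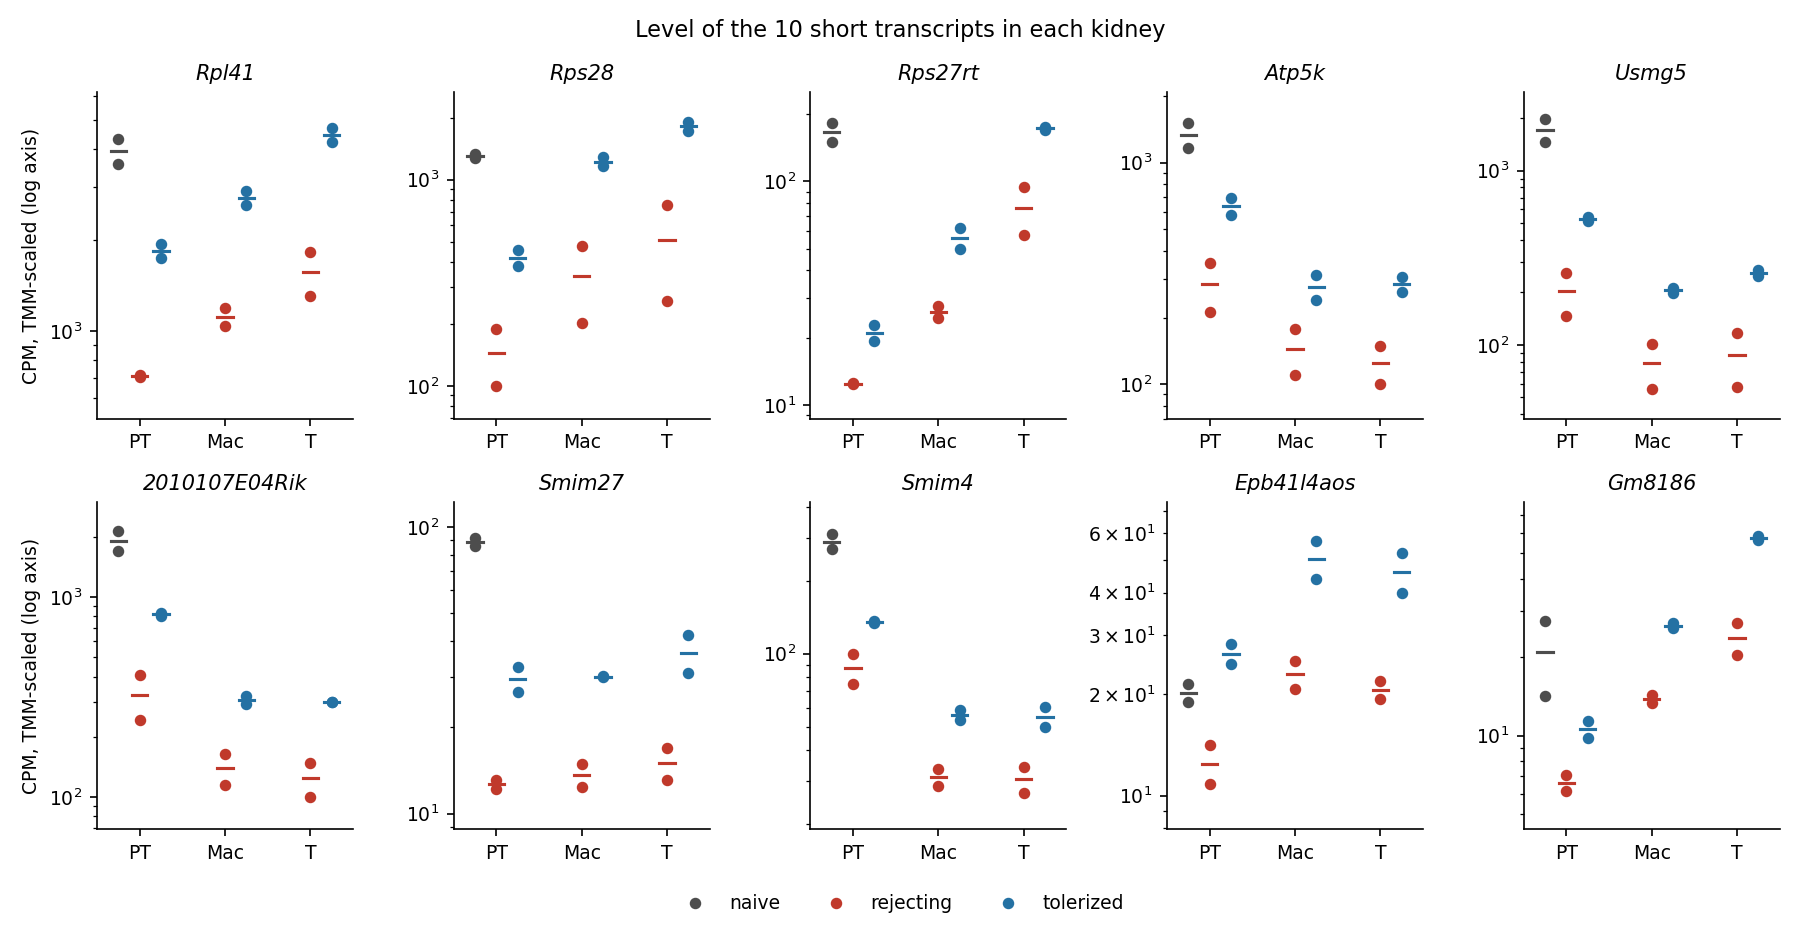
Levels of the 10 members in each kidney (CPM, TMM-scaled, on a log axis) in proximal tubule-like (PT), macrophage-like (Mac) and T cell-like (T) cells; points are kidneys and bars are the means of the 2 kidneys of a group. Both tolerized kidneys lie above both rejecting kidneys for each member and class plotted, and naive kidneys, plotted for PT only, are highest for 9 of the members, with Epb41l4aos as the exception.

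The same direction was found in leukocyte classes and in tubular classes. Over 11 classes with at least 50 cells in each grafted kidney, 108 pairs of a member and a class could be fitted, since Smim27 and Epb41l4aos were too low in NK cell-like cells. The log2 change was above 0 in 108 of 108 pairs, with a median of 1.10 and a range of 0.10 to 1.97. In 104 pairs both tolerized kidneys were above both rejecting ones, while over all genes and classes this was so for 18.5% of 102947 pairs. The rule used this contrast, so nothing is read from the excess. The pairs that overlapped were 3 for Smim4 and 1 for Rps27rt.

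The size of the change varied more between genes than between classes. Class medians over the members ran from 0.86 in loop of Henle-like cells to 1.27 in T cell-like and conventional DC-like cells, with 1.13 in macrophage-like cells, while the median over all genes in a class was between -0.01 and 0.01. Gene medians over the classes ran from 0.63 for Smim4 to 1.76 for Rps28, with 1.37 for Rpl41, 1.38 for Usmg5, 1.15 for Epb41l4aos, 1.09 for 2010107E04Rik, 1.05 for Smim27, 1.02 for Atp5k, 0.98 for Rps27rt and 0.95 for Gm8186. Rps28 had the largest change of the 3 ribosomal members in each of the 11 classes. Endothelium-like cells were left out of the fits because rejecting kidney 2 had 48 of them, and their raw CPM also put both tolerized kidneys above both rejecting kidneys for 10 of 10 members, beside 17.4% of 11120 genes with at least 10 UMIs. In bulk sums such as these, fewer cells of a subtype and less RNA per cell cannot be told apart.

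**Figure D2:**
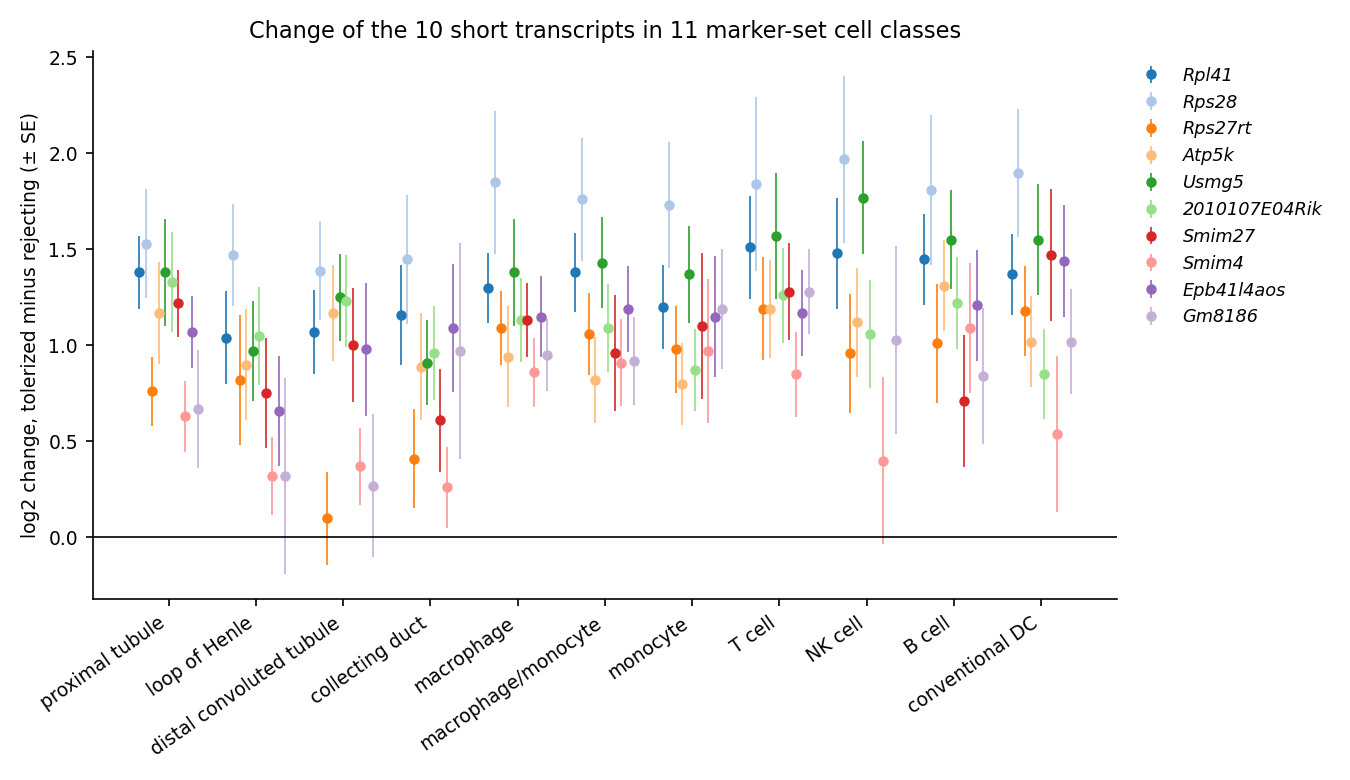
Log2 change, tolerized minus rejecting, of each member in 11 marker-set cell classes, with the SE of the edgeR fit as error bars (2 kidneys per group). Each point lies above 0, from 0.10 for Rps27rt in distal convoluted tubule-like cells to 1.97 for Rps28 in NK cell-like cells, with 0.10 to 1.53 in the tubular and 0.40 to 1.97 in the leukocyte classes.

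Whether a member changed more in one class than in another was tested with the class-by-group term of edgeR's quasi-likelihood test, with the kidney as a block and Benjamini-Hochberg adjustment over all genes. Genes that changed alike in several classes may have been preferred when the members were chosen, so a small difference is not independent support for a like change. No member was called for macrophage-like against proximal tubule-like, T cell-like against proximal tubule-like or T cell-like against macrophage-like cells, and over all genes the share called was 0% in each (0 of 13017, 0 of 12824 and 0 of 12344). At an unadjusted p under 0.05, 0 members and 972, 1042 and 712 genes passed. The lowest adjusted p of a member was 0.873, 0.715 and 0.828. The differences between classes ran from -0.25 to 0.38, from -0.18 to 0.56 and from 0.02 to 0.37 on the log2 scale. The outermost limits of their 95% intervals over the members were -0.78 and 0.90, -0.95 and 1.23, and -0.46 and 0.88. For T cell-like against proximal tubule-like cells, Rps27rt had -0.34 to 1.14, beside changes of 1.19 and 0.76. Rpl41 had -0.81 to 0.95, beside changes of 1.51 and 1.38. With 2 kidneys per group, differences between classes close to the size of the change itself were thus not detectable for some members, such as Rps27rt. DESeq2 called 0 members as well.

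Seen kidney by kidney, the mean over 8 members had the same sign in each class. The members were chosen on this contrast and each class was centred on these same grafts, so nothing is read from the signs. Smim27 and Epb41l4aos, without values in NK cell-like cells, were left out of it. With each class centred on its own mean over the 4 grafts (log2 CPM), rejecting kidney 1 lay between -1.0 and -0.47 in the 11 classes and rejecting kidney 2 between -0.61 and -0.27. Tolerized kidney 1 lay between 0.52 and 0.71 and tolerized kidney 2 between 0.20 and 0.69. T cell-like cells of rejecting kidney 1 were the lowest, at -1.0, and collecting duct-like cells of tolerized kidney 2 the least raised, at 0.20. Those T cell-like cells had medians of 1263 UMIs and 13.97% mitochondrial UMIs, against 2695 and 5.18% in rejecting kidney 2. In tolerized kidneys 1 and 2 the medians were 4596 and 4779 UMIs and 4.39 and 6.22%. The part of cell quality in the lowest value was not tested. With 1 library per kidney, what is shared by all cells of a kidney cannot be told apart from what is shared by all RNA of its library.

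Both kinds of graft were compared with naive kidneys in the 4 tubular classes, where naive cells were many. Naive kidneys did not enter the choice of the members, but rejecting and tolerized kidneys did, so neither comparison is fully independent of it. In proximal tubule-like cells, 10 of 10 members were lower in rejecting than in naive kidneys (median log2 change -2.52) by edgeR's quasi-likelihood test with Benjamini-Hochberg adjustment, in a class where 19.2% of genes were called lower. In tolerized kidneys 9 of 10 were lower (median -1.17), with 15% of genes called lower. The 1 not called was Epb41l4aos, at 0.39 ± 0.183 (adjusted p = 0.139, edgeR).

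Among the members in proximal tubule-like cells, the retrogene Rps27rt had the largest decrease as counted. Its log2 changes from naive were -3.74 with rejection and -2.98 with tolerance (adjusted p = 7.02e-06 and 1.69e-05, edgeR). Its coding part is identical to that of Rps27, and the pair together fell by less. The pair stood at 1328.8 and 1421.1 raw CPM (naive), 607.7 and 483.5 (rejecting), and 926.8 and 642.9 (tolerized). How far read assignment within the pair shaped the Rps27rt decrease was not tested. Rps28 had changes of -3.17 and -1.64 (adjusted p = 0.000171 and 0.00392, edgeR), and Usmg5 of -3.08 and -1.70 (0.000183 and 0.00323). Rpl41 had changes of -2.47 and -1.10 (adjusted p = 7.33e-05 and 0.00394, edgeR). The other ATP synthase members were lower too, with -2.24 and -1.07 for Atp5k and -2.56 and -1.23 for 2010107E04Rik. Among the less abundant members, Smim27 had changes of -2.81 and -1.59, Smim4 of -1.73 and -1.10, and Gm8186 of -1.64 and -0.97 (highest adjusted p of these 0.0342, edgeR).

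The other tubular segments gave fewer calls. In loop of Henle-like cells 8 members were lower in rejecting kidneys and 4 in tolerized kidneys, where 7.56% and 4.49% of genes were called lower. In distal convoluted tubule-like cells the counts were 9 and 7, beside 11.2% and 7.92% of genes, and in collecting duct-like cells 8 and 5, beside 9.05% and 7.61%. No member was called higher than naive in any of these. In tolerized loop of Henle-like cells the 4 were Rps27rt, Usmg5, 2010107E04Rik and Smim27, whereas Rpl41 was at -0.49 ± 0.240 (adjusted p = 0.231, edgeR) and Atp5k at -0.51 ± 0.288 (0.303). Epb41l4aos and Gm8186 were not called in either graft in loop of Henle-like or collecting duct-like cells.

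Naive leukocytes were too few for a fit, with 30 and 42 T cell-like and 19 and 29 macrophage-like cells, and are described only. In naive T cell-like cells the raw CPM of Rps28 was 6391.0 and 5485.6, while rejecting kidneys had 278.8 and 771.1 and tolerized kidneys 1857.3 and 1601.5. Rpl41 was at 7448.0 and 7506.6, against 1417.2 and 1865.2, and 4547.5 and 3936.1. Rps27rt was at 1349.7 and 1402.3, against 62.3 and 96.4, and 170.6 and 158.0. Rps27rt and Rps27 together were at 13383.6 and 14683.3, against 2835.7 and 3645.5, and 6772.6 and 5182.1. Summed over all leukocyte classes, both naive kidneys were above all 4 grafts for 9 of 10 members, with Epb41l4aos as the exception, beside 15.8% of 15503 genes with at least 10 UMIs.

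Reads that match a member and its copy equally well cannot be assigned by sequence, so the copies were examined. Gm10076, a noncoding gene on chromosome 14 that contains the whole Rpl41 coding part, was high in rejecting kidney 1. It stood there at 655.8 CPM (TMM-scaled) in proximal tubule-like cells, against 182.5 in rejecting kidney 2 and 214.4 and 204.8 in tolerized kidneys. Its median log2 ratio of tolerized to rejecting over the classes was -1.0, and 0.04 without rejecting kidney 1, so the direction opposite to Rpl41 rests on that library. Rpl41 held 50.3 to 54.4% of the UMIs of this pair in rejecting kidney 1, depending on the class, and 77.5 to 80.6% in rejecting kidney 2. It held 88.8 to 90.3% in tolerized kidney 1 and 88.5 to 90.0% in tolerized kidney 2. In naive kidneys 1 and 2 it held 97.1 to 97.8% and 93.6 to 94.6%. This split was nearly the same in all classes of a kidney and differed between kidneys, rejecting kidneys included. The sum of Rpl41 and Gm10076 (TMM-scaled CPM) was still higher in both tolerized than in both rejecting kidneys in 11 of 11 classes, but by less, with a median log2 ratio of 0.83 (0.52 to 1.05) against 1.37 for Rpl41 alone.

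The other pairs behaved differently. Rps27rt held 1.54 to 4.51% of the UMIs of Rps27rt and Rps27 in the 4 grafts and 8.67 to 11.1% in the naive kidneys, and Rps27 itself was higher in tolerized kidneys by a median of 0.81 over the classes. Together this pair had a median log2 ratio of 0.81 and did not overlap in 9 of 11 classes. Gm8186 held a median of 5.95% of the UMIs of Gm8186 and Snrpg in rejecting kidney 1, 13.3% in rejecting kidney 2, and 17.7% and 16.4% in the tolerized kidneys. The sum of Gm8186 and Snrpg was not higher in tolerized kidneys, with a median log2 ratio of -0.16 and overlapping groups in each class, and Snrpg is by far the larger part. This too rests on rejecting kidney 1. In macrophage-like cells the sum was 244.0 CPM in that kidney, 99.7 in rejecting kidney 2 and 151.5 and 159.4 in tolerized kidneys, and without rejecting kidney 1 the median ratio was 0.63. The naive kidneys differed from each other in this share, with medians of 8.99% and 16.7%. The 4 members with no near-copy had medians of 0.71 to 1.22 over the classes in tolerized against rejecting kidneys, and the 6 with copies 0.94 to 1.39. Of these 6, only Rpl41, Rps27rt and Gm8186 had a copy among the genes counted here. The copies of Rps28, Atp5k and Usmg5 were annotated but not among those genes. The part of read assignment in the change of Rpl41, Rps27rt and Gm8186 was not tested.

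**Figure D3:**
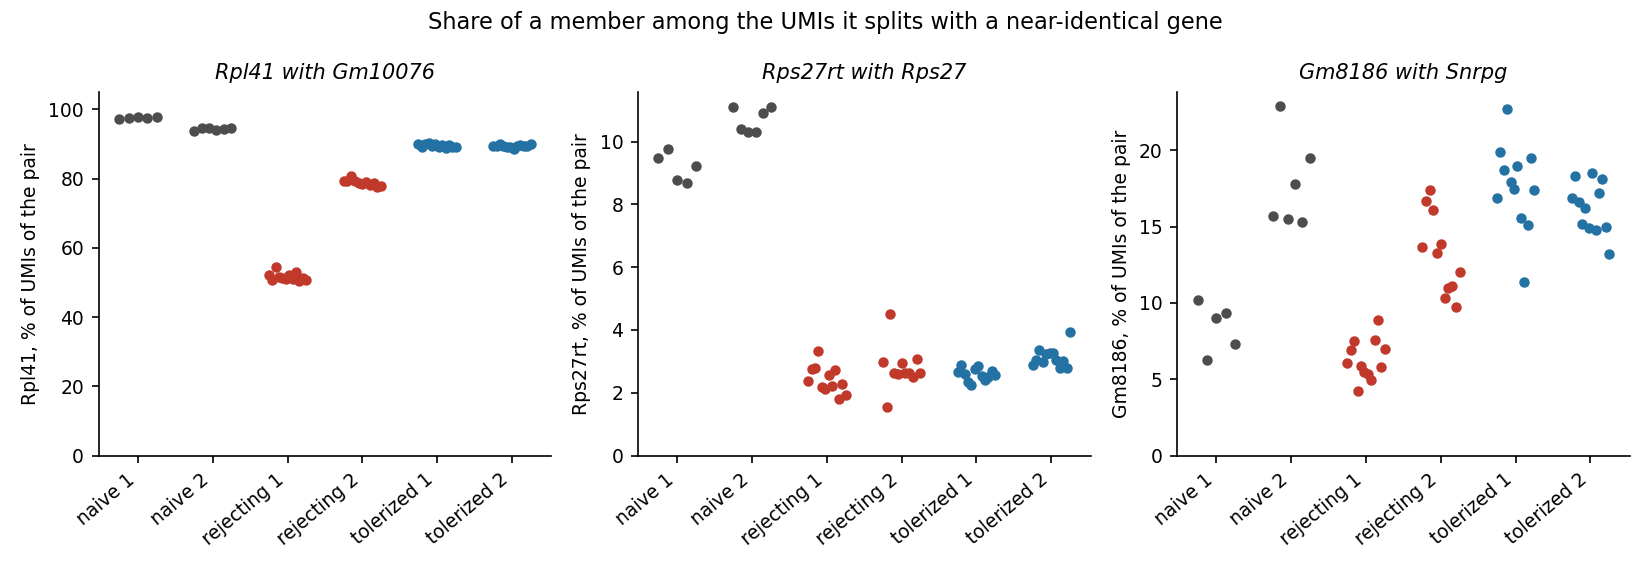
Share of Rpl41, Rps27rt and Gm8186 (percent) among the UMIs of each with its near-identical gene, per kidney; each point is a cell class with at least 50 cells and 50 UMIs of the pair. For Rpl41 the classes of a kidney cluster tightly while kidneys differ, from 50.3 to 54.4% in rejecting kidney 1 to 97.1 to 97.8% in naive kidney 1.

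Depth moved with the groups, and mitochondrial share, a measure that rises in damaged cells, differed between kidneys. Its median was 13.3 and 5.4% in rejecting, 7.5 and 13.7% in tolerized and 25.5 and 24.9% in naive kidneys, so the grafts overlapped. The members were therefore summed within cells of like depth and of like mitochondrial share. Rpl41 and Rps28 made up most of the sum in macrophage-like and T cell-like cells. In tolerized kidney 1 they were at 2903.4 and 1284.5 CPM (TMM-scaled) in macrophage-like cells, where the next member, 2010107E04Rik, was at 319.7. The members were chosen on this contrast and the share over all genes was not counted, so the bin counts that follow are a description. For all cells with 4000 to 8000 UMIs, the summed raw CPM of the 10 members was 2098.4 and 2850.1 with rejection and 6322.1 and 4694.7 with tolerance. For all cells with under 5% mitochondrial UMIs, it was 2231.1 and 2704.1 against 6297.7 and 5348.9. Taking all cells, both tolerized kidneys were above both rejecting kidneys in 5 of 5 depth bins and in 5 of 5 mitochondrial bins, by 2.05 to 2.67 times as a ratio of means. In proximal tubule-like cells this held in 5 of 5 bins of each kind (1.80 to 2.42 times) and in macrophage-like cells in 4 of 4 and 3 of 3 (2.39 to 3.16 times). With mitochondrial UMIs left out of the totals, proximal tubule-like cells kept the order in 4 of 5 depth bins. In those of 1000 to 2000 UMIs, rejecting kidney 2 had 3330.9 and tolerized kidney 2 had 3194.2 CPM on that scale. In T cell-like cells it held in 4 of 5 depth bins, the exception being 1000 to 2000 UMIs, where tolerized kidney 2 had 2314.8 and rejecting kidney 2 had 2363.2, and in 5 of 5 with mitochondrial UMIs left out of the totals.

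Within proximal tubule-like cells, tolerized kidney 2 was close to rejecting kidney 2 at low depth. In cells of 1000 to 2000 UMIs the members summed to 1957.0 and 2691.0 raw CPM in rejecting and to 6492.3 and 2842.3 in tolerized kidneys, and in cells of over 8000 UMIs to 1721.0 and 2248.4 against 4888.0 and 4088.0. Naive proximal tubule-like cells of over 8000 UMIs gave 6947.9 and 9890.2. In T cell-like cells the sum was 1394.4 and 860.0 raw CPM below 1000 UMIs and 3648.9 and 4646.2 above 8000 in rejecting kidneys, and 2442.0 and 3058.7 against 9777.8 and 8324.8 in tolerized kidneys. From the lowest to the next bin (1000 to 2000 UMIs) it was lower in rejecting kidney 1 (1230.4) and tolerized kidney 2 (2314.8), and beyond that it was higher in each deeper bin in each graft. Barcodes that failed the filter on cells kept the order of groups for 5 of 10 members, beside 15.6% of 12657 genes with at least 10 UMIs. Usmg5 was there at 50.3 and 69.8 against 122.8 and 150.1 raw CPM, while Rpl41, at 354.1 and 187.0 against 356.3 and 348.8, overlapped between the groups. RNA of other cells also differed. The 10 T cell markers summed to 174.3 and 39.8 raw CPM in rejecting and 18.2 and 14.9 in tolerized proximal tubule-like cells, and the 9 macrophage markers to 258.9 and 66.4 against 44.8 and 20.7, with none of them at 0 in any graft. The part of such RNA in the members' change was not tested.

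**Figure D4:**
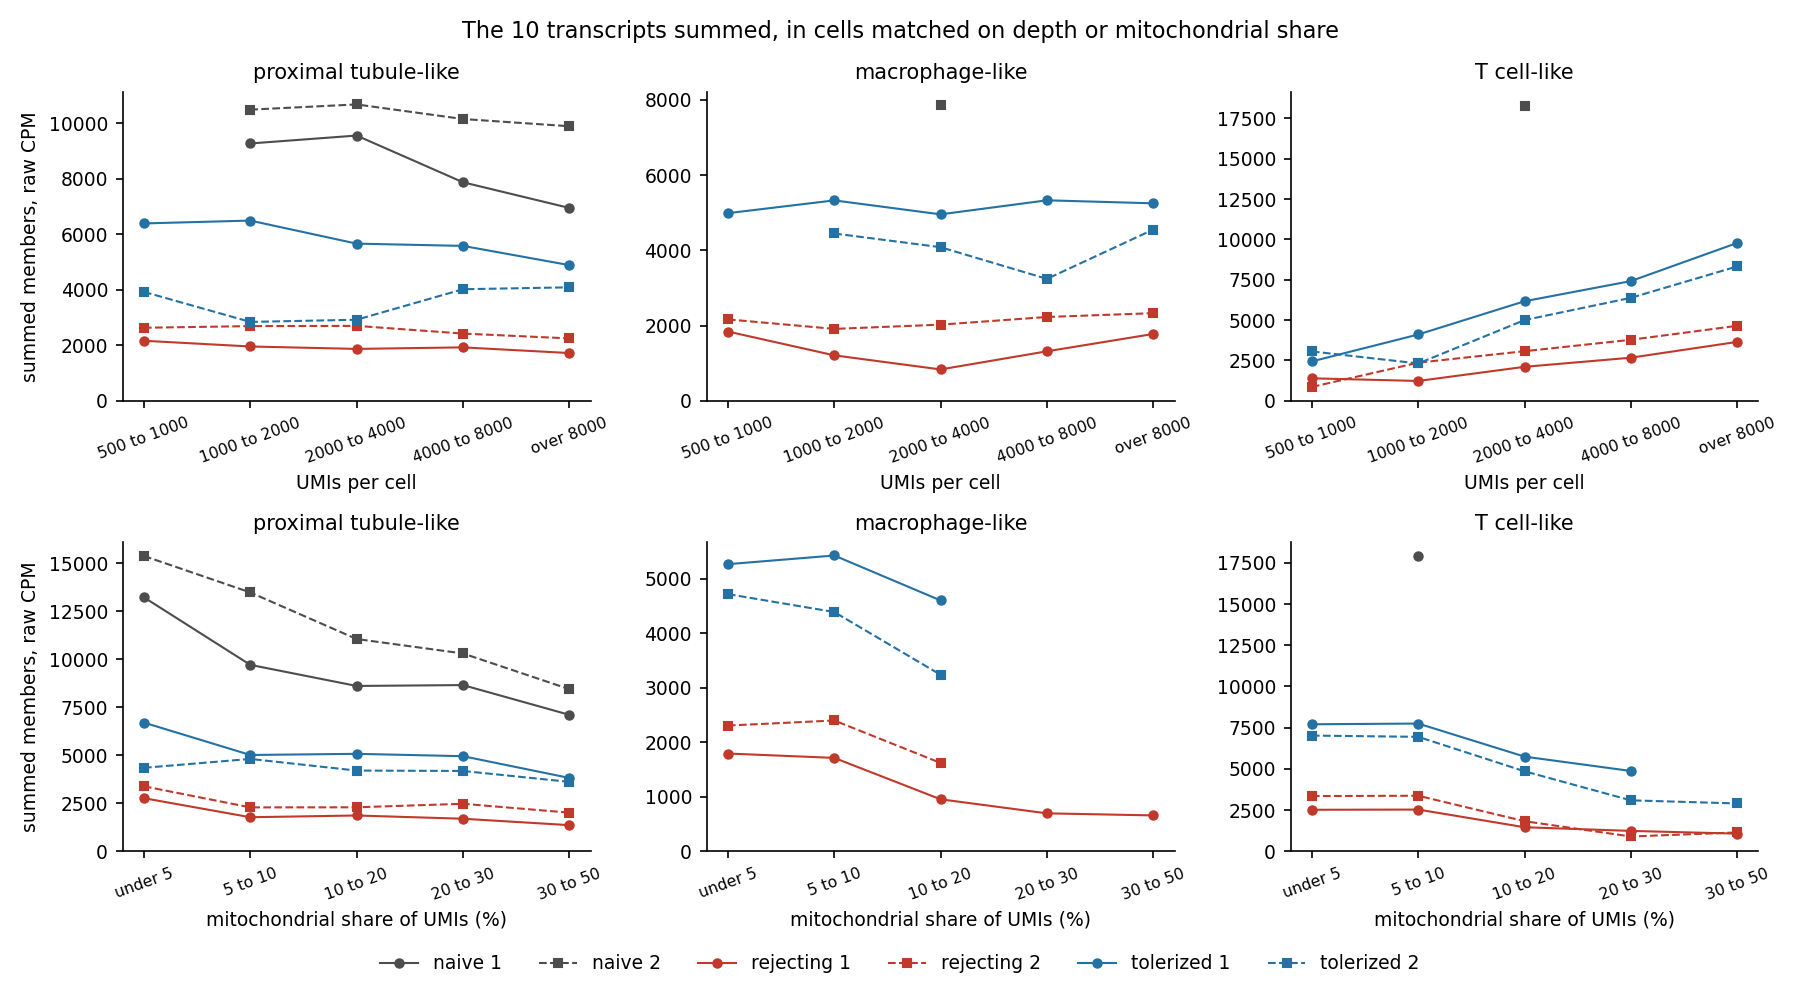
Summed level (raw CPM) of the 10 members in cells binned by UMIs per cell (top) or by mitochondrial share of UMIs (bottom), 1 line per kidney; bins with too few cells are left out. Tolerized kidneys lie above rejecting kidneys in all bins with 4 grafts except T cell-like cells of 1000 to 2000 UMIs, where 1 kidney of each group meets (2314.8 and 2363.2). Rpl41 is the most abundant member in the grafts in these classes, so the sum weighs it most.

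The members were then set beside the rest of their families, from lists in which the members were left out. edgeR's quasi-likelihood test with Benjamini-Hochberg adjustment called 0% of genes higher in tolerized kidneys in proximal tubule-like, macrophage-like and T cell-like cells (0 of 12702, 0 of 11118 and 0 of 11327), so counts at an unadjusted p under 0.05 are given, which 4.30%, 2.98% and 3.16% of all genes reached in the higher direction. DESeq2 called 0.606%, 0.171% and 0.203% of genes higher.

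Most other ribosomal protein genes differed by less than the members. The members were chosen on this contrast, so nothing is read from that gap. Of 81, 80 and 80 measured in proximal tubule-like, macrophage-like and T cell-like cells, 9, 13 and 16 reached an unadjusted p under 0.05 in the higher direction and 2, 1 and 1 in the lower. DESeq2 called 6, 7 and 6 higher. Without rejecting kidney 2, edgeR's adjusted test called 2, 6 and 20 of them in either direction, in place of 0 in each. Their median log2 changes were 0.02, 0.21 and 0.38. The highest by median over the classes were Rps29 (1.21) and Rpl38 (1.13), proteins of the small and the large subunit, and Rpl13a (-0.34), of the large subunit, was among the lowest.

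A list of 8 ribosomal protein genes named by the study holds 2 members and 6 others, Rpl38, Rplp1, Rps27, Rps26, Rps21 and Fau. The study picked these genes on the same kidneys, so they are not independent evidence of a direction. All 6 reached an unadjusted p under 0.05 in the higher direction in each of the 3 classes, with medians of 0.64, 0.89 and 1.02, and DESeq2 called 5, 6 and 4 of them. None passed edgeR's adjusted threshold. In proximal tubule-like cells Rpl38 was at 323.6 and 393.5 CPM with rejection, 844.9 and 651.3 with tolerance and 1174.1 and 1490.3 without a transplant, the order of the members, but Rps21 was at 648.3 and 513.0, 1048.9 and 881.9, and 582.1 and 655.4, with naive kidneys not the highest.

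Most other subunits of the mitochondrial complexes also differed by less than the members, a gap that the choice of the members sets in advance. Of the 15 other ATP synthase genes, 0, 0 and 1 reached an unadjusted p under 0.05 in the higher direction in the 3 classes, with medians of 0.26, 0.11 and 0.36. The highest over the classes were Atp5o (0.43) and Atp5e (0.43), stalk subunits, and the lowest Atp5a1 (-0.11), the alpha subunit, and Atp5f1 (-0.12). Of 63, 64 and 61 respiratory chain subunits, 9, 3 and 7 reached it, with medians of 0.28, 0.12 and 0.36, led by Cox7a1 (0.98) and Ndufa3 (0.88), small subunits of complexes IV and I, while Sdhd (-0.17) and Ndufa8 (-0.15) were lowest. Of 12 small genes of mitochondrial import and membranes, 4, 2 and 4 reached it, led by Tomm6 (0.72) and Romo1 (0.51).

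The families of the remaining members were small and are given as counts, beside 4.30%, 2.98% and 3.16% of all genes past this level in the higher direction. Of 18, 14 and 16 other Smim genes, 2, 0 and 1 reached an unadjusted p under 0.05 in the higher direction, with Smim5 (0.61) and Smim1 (0.54) highest by median over the classes and Smim13 (-0.37) lowest. Of 6, 5 and 5 snoRNA host genes, the noncoding class set beside Epb41l4aos, 2, 1 and 0 did. Immediate early and heat shock genes, which are induced by tissue dissociation, reached an unadjusted p under 0.05 in the lower direction for 6, 0 and 3 of 15, beside 7.13%, 2.57% and 4.74% of all genes in that direction. In loop of Henle-like cells 13 of 15 did (edgeR), where the share over all genes was not counted. The list's median log2 change ran from -0.80 in that class to -0.03 in distal convoluted tubule-like cells. By gene, medians over the classes ran from -1.17 for Hspa1a to 0.48 for Dusp1, a phosphatase of MAP kinases, the 1 gene of the list above 0. The nuclear noncoding RNAs Malat1 (0.23), Kcnq1ot1 (0.15) and Neat1 (-0.09) differed little by median over the classes.

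Length was examined over all other genes in the fits. In proximal tubule-like cells, the 112 genes with a longest transcript under 500 bases had a median log2 change of 0.65 from rejecting to tolerized, against 0.11 for 500 to 1000 bases, 0.02 for 1000 to 2000, -0.01 for 2000 to 4000 and -0.03 above. In macrophage-like cells the 70 genes under 500 bases had a median of 0.39, and in T cell-like cells the 110 had 0.40, with -0.05 and -0.15 above 4000 bases. Genes under 500 bases had the highest median of the 5 length ranges in each of the 11 classes (0.13 to 0.65), but above 500 bases the order differed between classes. In loop of Henle-like cells the medians were -0.14, -0.11, -0.01 and 0.08 from 500 bases upwards, in collecting duct-like cells -0.09, -0.07, 0.00 and 0.07, and in monocyte-like cells -0.08, -0.06, 0.00 and 0.06. In macrophage-like and T cell-like cells, the medians under 500 bases were 0.25 and 0.21 without rejecting kidney 2. Without tolerized kidney 2 they were 0.26 and 0.15. Ribosomal protein genes alone gave the same order. Those under 500 bases (8 genes, members left out) had medians of 0.64, 0.87 and 0.99 in the 3 classes and those over 700 bases -0.02, 0.16 and 0.35. Against naive kidneys the direction was reversed in proximal tubule-like cells, where genes under 500 bases had medians of -1.45 in rejecting and -0.83 in tolerized kidneys and those over 4000 bases 0.37 and 0.33. When length was taken from the shortest annotated transcript, the medians from rejecting to tolerized were 0.01, 0.00 and 0.02. Genes are not replicates, and these medians are a description.

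**Figure D5:**
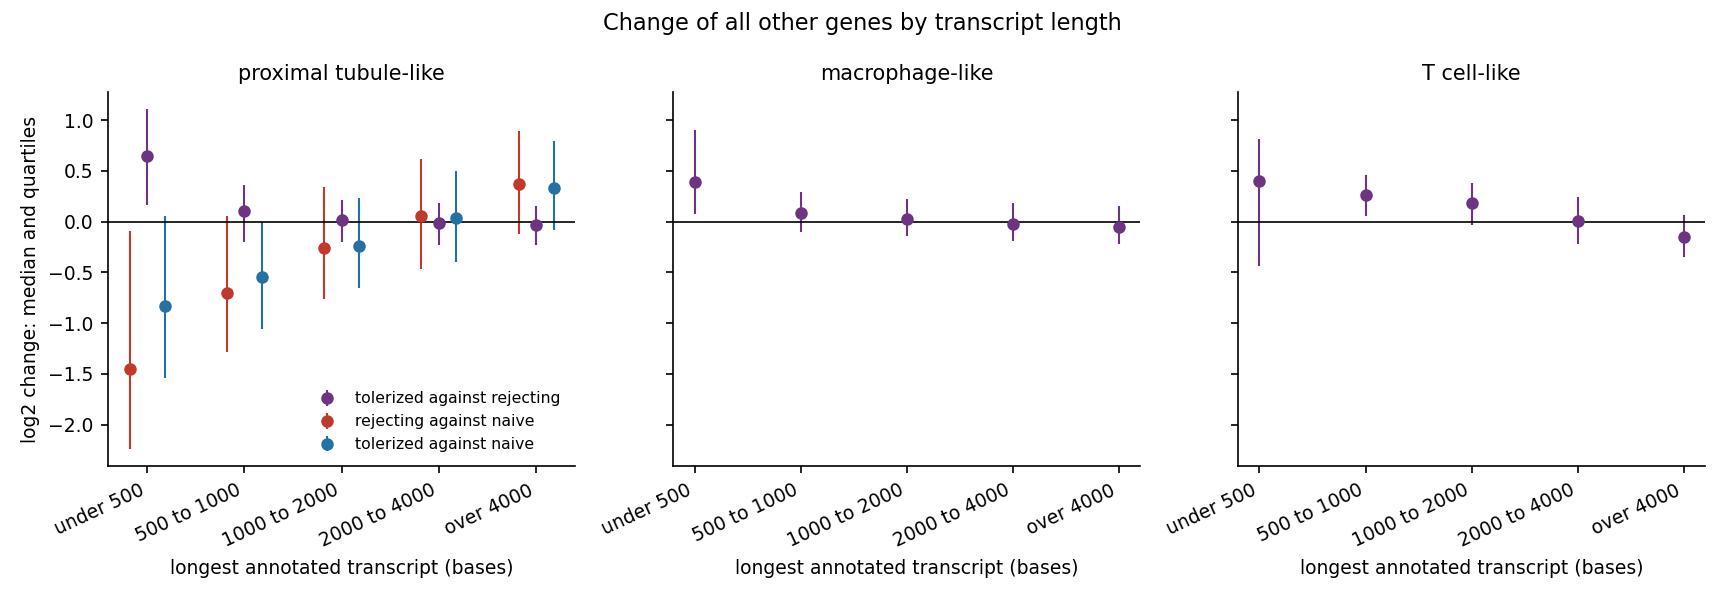
Log2 change of all genes except the members, by length of the longest annotated transcript in bases (points are medians over genes, bars the quartiles), in proximal tubule-like, macrophage-like and T cell-like cells; comparisons with naive kidneys exist for the first class. Genes under 500 bases have the highest medians from rejecting to tolerized (0.65, 0.39 and 0.40) and the lowest against naive kidneys (-1.45 and -0.83).

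The genes whose pattern was most like the members' were found by correlation with the mean of the 8 members with values in each class. It was taken over 44 points, which are 11 classes in 4 grafts, each class centred on its own mean. The points share libraries, so the coefficients are a description. Of 4034 genes with at least 10 CPM and values in each class, 13 had r over 0.9, and the 90th percentile was 0.47. The 10 most like were Rpl38 (0.97), Rplp1 (0.96), Gm11808 (0.95), Ndufa3 (0.95), Gm2000 (0.94), Fau (0.94), Rps26 (0.93), Pet100 (0.93), Rps21 (0.93) and Rps29 (0.92). Their longest transcripts were under 1000 bases for 9 of 10 and under 500 for 5. The share of such lengths among the 4034 genes was not counted, so nothing is read from these lengths. Among the members with values in each class, r with the mean of the other members was 0.98 for Rpl41, 0.97 for Usmg5, 0.96 for 2010107E04Rik, 0.95 for Atp5k, 0.93 for Rps28, 0.89 for Rps27rt, 0.84 for Gm8186 and 0.68 for Smim4. The members were chosen for being higher in tolerized than in rejecting kidneys, and the points are these same grafts. Nothing is therefore read from how alike the members are.

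In naive kidneys the genes most like the members fell into different orders. Ndufa3, a small subunit of complex I, was at 960.8 and 1263.9 CPM in the naive proximal tubule-like class, at 92.0 and 129.2 with rejection and at 261.6 and 217.6 with tolerance. Gm2000 was at 45.0 and 98.7, then 4.61 and 9.62, then 23.3 and 20.2. Rplp1, a stalk protein of the large subunit, was instead at 1072.6 and 1238.5, then 945.6 and 975.3, then 1519.0 and 1375.7, with tolerized kidneys the highest.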

How the data were processed

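The authors aligned reads to mm10 and counted UMIs with Cell Ranger (3.0.1 in the headers of the transplanted matrices, no version in the naive ones), after bcl2fastq, and deposited 1 matrix of raw UMI counts per kidney. Here the 28208 shared genes were used. Barcodes under 500 UMIs, under 250 genes or over 50% mitochondrial UMIs were dropped, as were doublets called from simulated neighbours, and cells were clustered (scanpy 1.11.5, Leiden resolution 1.5) and named from fixed markers.

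Counts were summed per kidney and class with at least 50 cells and fitted with edgeR 4.0.16 (filterByExpr, TMM, quasi-likelihood, Benjamini-Hochberg threshold 0.05), with naive kidneys in the fits of tubular classes. SE is the absolute log2 change over the square root of F. DESeq2 1.42.0 was an alternative. The scripts were tested on simulated data. Total UMIs per library were 34874702 to 96803926, and the 95% intervals of the class-by-group term come from the fit. Gene models are GENCODE M21, and near-copies were sought with BLAST 2.17.0. With 2 kidneys per group, p-values measure the spread between these kidneys. The members, lists and marker sets were chosen with earlier results of these data known. The genes named were drawn from the members, the 10 genes most like their mean and the ribosomal protein genes named by the study. From each list they were drawn from the 2 highest and 2 lowest by median change over classes, not all of which are named. Gm10076 and Snrpg were added as near-copies. A gene that this rule also names is not reported here. The study ran 2 experiments, to which the labels do not tie the replicate numbers. Unused columns of other samples numbered 0.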

Additional observations from a re-analysis of the deposited data

How the results depend on the processing

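The members' median log2 change from rejecting to tolerized stayed above 0 in all alternatives run, with 1.02 to 1.34 in proximal tubule-like, 1.01 to 1.31 in macrophage-like and 1.08 to 1.55 in T cell-like cells. The members were chosen on this contrast in the same cells, so nothing is read from the sign. With cells thinned to 1000 UMIs it was 1.31 in macrophage-like cells. Against naive kidneys, 9 to 10 members were called in rejecting and 6 to 9 in tolerized proximal tubule-like cells. The class-by-group calls stayed at 0 in the 12 alternatives. The number of other ribosomal protein genes called in proximal tubule-like, macrophage-like and T cell-like cells, 0 in each, became 7, 7 and 6 with DESeq2 and 7, 9 and 1 with no filter on low counts. The median of genes under 500 bases, 0.65, 0.39 and 0.40, became 0.22, 0.24 and -0.01 with no filter, and 0.01, 0.00 and 0.02 with the shortest annotated transcript, which put 6038, 5524 and 5642 genes under that length. In proximal tubule-like cells it was 0.60 with at most 20% mitochondrial UMIs, 0.43 with thinned cells and 0.45 for genes of at least 100 CPM, and 0.60 in T cell-like cells for the latter. The cause of the other shifts was not tested.

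Leaving out 1 kidney leaves a group with 1 kidney, assumed to vary like the others. The members' medians were then 1.02 to 1.34, 1.01 to 1.31 and 1.08 to 1.55 in the 3 classes, and the medians of genes under 500 bases 0.51 to 0.65, 0.25 to 0.52 and 0.15 to 0.46. The ribosomal protein genes called were 0 to 2, 0 to 6 and 1 to 20, highest without rejecting kidney 2. The members called were 9 to 10 in rejecting and 6 to 9 in tolerized against naive kidneys, the 6 without naive kidney 2. In an alternative chosen after seeing the data, the median log2 ratio of tolerized to rejecting over the classes was -1.65 to 0.04 for Gm10076 and -0.69 to 0.63 for Gm8186 and Snrpg together, each reversed only without rejecting kidney 1 (0.04 and 0.63), and 0.58 to 1.08 for Rpl41 and Gm10076 together.

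The study ran 2 experiments, but the labels do not tie the replicate numbers to them, so whether equal numbers pair kidneys is not known. Deviations of same-numbered kidneys correlated at -0.108 and -0.102 (naive with rejecting and with tolerized), 0.108 (rejecting with tolerized, proximal tubule-like), -0.151 (macrophage-like) and -0.181 (T cell-like). With a replicate block the members' medians were 1.22, 1.14 and 1.28, the members called against naive kidneys were 10 and 9, and 0 other ribosomal protein genes were called. A crossed replicate block, chosen after seeing the data, called 3 and 0 of these in macrophage-like and T cell-like cells.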
